A study of Mus musculus with 6 samples.

Results

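Gene expression in the soleus of wild-type mice was compared between muscle 3 days after denervation (2 libraries) and innervated muscle (2 libraries). These 4 of the 6 libraries of the series were chosen by their titles. The other 2 came from 3-day denervated soleus of mice labelled Dach2-/-/Hdac9-/- and entered here through the shared estimate of the spread between libraries, the scaling and the filter on low levels. All mice were adult C57BL/6, and polyadenylated RNA of the whole muscle was sequenced. The study set out to find genes regulated by the transcriptional co-factor Dach2 and the class II histone deacetylase Hdac9. The comparison described here gives the response of wild-type muscle to denervation, mainly in genes outside the well-known lists of synapse, atrophy, fibre-type and energy-metabolism genes. The labels do not say how the nerve was removed, or whether the 2 libraries of a group came from separate animals, so p-values reflect only how much these libraries differ, and that spread may be technical.

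The soleus is a hindlimb muscle rich in slow, oxidative fibres. A muscle fibre is a multinucleate cell whose nuclei adjust transcription to the electrical activity set by its motor nerve. When the nerve is lost, fibres lose mass, and genes held low by activity, such as those of acetylcholine receptors, are transcribed along the whole fibre. A muscle also holds satellite cells, vessels, fibroblasts, fat cells, resident macrophages and the Schwann cells of its nerves, and whole-muscle RNA sums over all of them.

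The innervated libraries held 31671100 and 25529434 fragments assigned to genes, and the denervated libraries 46305449 and 30489977. Expression levels are the authors' FPKM (fragments scaled to transcript length and library size). Changes are log2 fold changes ± SE, denervated over innervated, computed with edgeR's quasi-likelihood method from the deposited fragments, with Benjamini-Hochberg adjusted p over the 12247 genes tested. A gene is said to have risen or fallen where its adjusted p was under 0.05. Log2 expression of the 2 libraries of a group correlated across genes, which are not independent replicates, at 0.988 in innervated and 0.966 in denervated muscle. Fibre genes carried the labelled tissue: the titin gene Ttn alone held 1.61% and 1.51% of all fragments in innervated muscle and 1.27% and 0.839% in denervated muscle. The 10 most abundant genes of each library together held 11.7% and 11.8% of all fragments in innervated muscle and 7.48% and 5.93% in denervated muscle.

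In all, 3512 genes (28.7%) changed. Of the genes tested, 1759 (14.4%) rose and 1753 (14.3%) fell. At least 2-fold rises numbered 1004 (8.2%) and at least 2-fold falls 1163 (9.5%). When the test itself asked for a change beyond 2-fold (edgeR's glmTreat), 194 genes (1.58%) were higher and 181 (1.48%) lower. The median change over all genes tested was 0.0 on the log2 scale, and the median size of a change was 0.51. That balance depends on the scaling: with library totals and no further scaling, the median of all genes shifted up by 0.26, and 3331 genes were called higher and 1144 lower. Shares near 14.4% higher and 14.3% lower are the background against which every group of genes below is read.

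The number of calls depended on the innervated libraries more than on the denervated ones. Without innervated library 1, 468 genes were called, and without innervated library 2, 202. Of the 3512 calls, 463 and 201 stayed in those 2 fits. Without denervated library 1, 5357 genes were called and 3330 of the 3512 calls stayed, and without denervated library 2 the numbers were 2832 and 2506. In each of these fits 1 library stood alone in its group and was assumed to vary like the other groups, and the cause of the difference between the fits was not tested. In every called gene both denervated libraries lay on one side of both innervated libraries. Leaving out 1 library could therefore hardly reverse a direction, and no call changed its direction in any of these fits. With only the 4 wild-type libraries in the fit, 2751 genes were called, and 2676 (76.2%) of the 3512 calls stayed. The other calls thus relied on the spread shared with the double-mutant libraries. Counts of calls kept without each library stand beside the genes below.

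**Figure D1:**
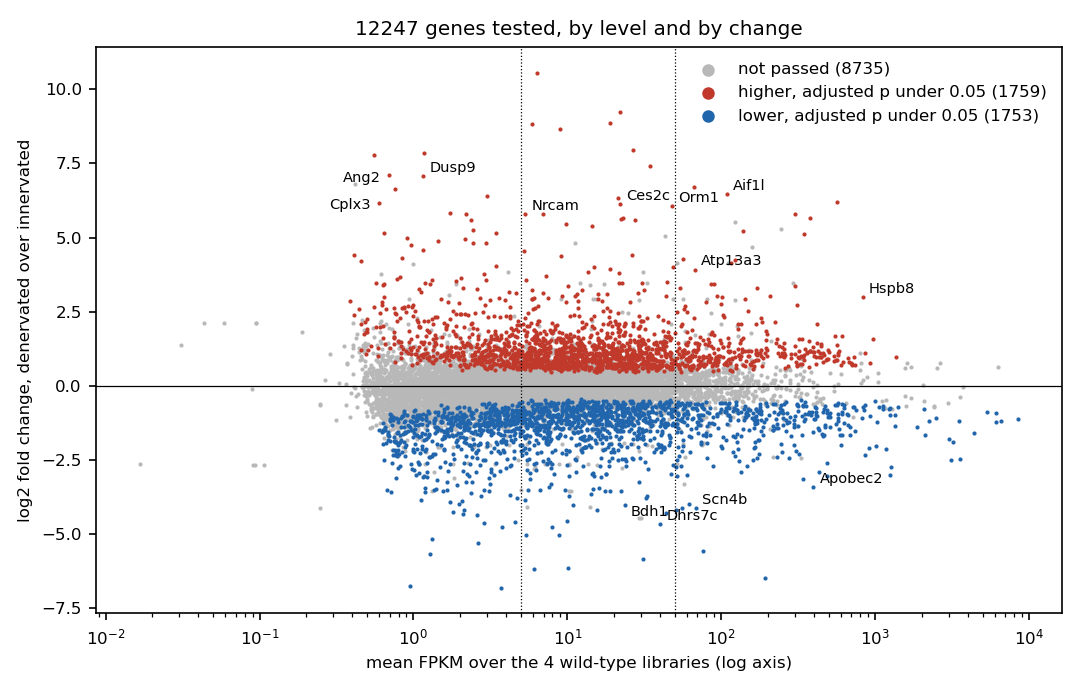
Each point is 1 of the 12247 genes tested, placed by its mean FPKM over the 4 wild-type libraries (log axis) and its log2 fold change, denervated over innervated; red points rose, blue points fell and grey points did not pass edgeR's test. Dotted lines at 5 and 50 FPKM separate the 3 levels used in the text, and changes of both directions occur at every level.

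Large changes occurred at every level of expression. Among 1348 genes of at least 50 FPKM (mean of the 4 libraries), 315 (23.4%) rose and 347 (25.7%) fell. Among 5856 genes of 5 to 50 FPKM the counts were 982 (16.8%) and 833 (14.2%), and among 4932 genes of 0.5 to 5 FPKM they were 449 (9.1%) and 573 (11.6%). The share called increased with level, while the median SE of a log2 change fell from 0.29 in the low level to 0.20 in the middle and 0.18 in the high level. The median size of a log2 change was 0.52 in the low, 0.47 in the middle and 0.69 in the high level. Of the 2670 genes with an estimated change of 1.5-fold to 2-fold, 45.7% passed the test, against 75.2% of the 2144 genes changed 2-fold to 4-fold and 85.7% of the 98 genes changed at least 16-fold. Of those 98 genes, 55 rose and 29 fell. The filter on low levels took the mean of all 6 libraries, most of them denervated. Genes near 0 in innervated muscle therefore passed it more easily than genes near 0 in denervated muscle.

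The 2 denervated libraries usually gave changes of the same direction but of different size. In 8649 genes (70.6%) both denervated libraries lay on one side of both innervated libraries: above them in 4296 (35.1%) and below them in 4353 (35.5%). All 3512 called genes were among these, and so were 5137 genes that did not pass the test. Sample numbers in the titles put the first library of each group in one run of numbers and the second in another, so a ratio can be formed within each run. Groups that do not overlap must give ratios of the same sign, so each of the 3512 called genes had the same sign in both ratios. Of these genes, 650 rises and 866 falls reached 2-fold in both. The second ratio was the larger for 1310 of the risers (74.5%) and 1296 of the fallers (73.9%). Over all genes, the spread (SD) of the log2 ratios was 0.91 for the first library of each group and 1.18 for the second, and the ratios correlated across genes at 0.83. The denervated libraries differed from each other by over 2-fold in 1268 genes (10.4%), and the innervated libraries in 252 (2.06%).

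**Figure D2:**
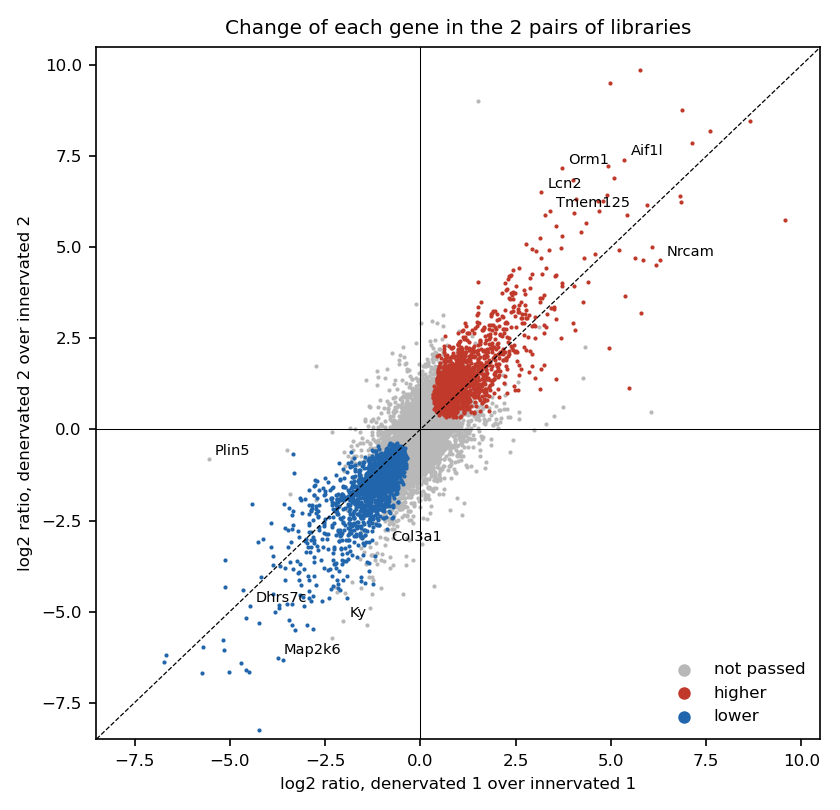
Each point is a gene, placed by its log2 ratio of denervated library 1 over innervated library 1 (horizontal axis) and of denervated library 2 over innervated library 2 (vertical axis), with genes that rose in red, genes that fell in blue and the rest in grey; the dashed line marks equal ratios. Most red points lie above the dashed line and most blue points below it, the 74.5% and 73.9% of called genes whose change was larger in the second ratio.

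Cell types other than fibres were read from 12 marker lists. Fibre markers fell in 6 of 11 tested members, endothelial markers in 10 of 12, pericyte and smooth muscle markers in 7 of 11, fibroblast markers in 4 of 13, myelinating Schwann cell markers in 7 of 10, with 1 higher, and tenocyte markers in 3 of 8, with 1 higher. All 9 tested adipocyte markers fell, with a median log2 change of -2.31 and summed levels of 1040 and 1010 FPKM in innervated against 310 and 344 FPKM in denervated muscle. Endothelial markers had a median of -1.12 and summed to 207 and 246 FPKM against 105 and 95.1. Fibre markers had a like median of -1.13 and summed to 42100 and 47500 FPKM against 20100 and 18400. The medians were -0.98 for pericyte and smooth muscle, -0.96 for fibroblast, -1.35 for Schwann cell and -1.29 for tenocyte markers. In bulk RNA, fewer cells of a type and less RNA per cell cannot be told apart. Macrophage markers had 1 of 14 members higher, neutrophil markers 1 of 4 higher, and satellite cell markers 1 of 9 higher and 1 lower, while the 1 lymphocyte and 2 erythroid markers tested did not pass. The part that these cell types play in the genes and gene groups below was not tested.

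The genes named by size were taken after leaving out the classic lists and 42 genes already described for these data, such as Krt8 and Lrrc52, so they are not the largest changes of all genes. Among abundant genes so chosen, the largest falls included genes of the fibre's membrane and mitochondria. Scn4b encodes an auxiliary subunit of voltage-gated sodium channels, and Lynx1 a membrane-anchored protein that modulates nicotinic acetylcholine receptors. Scn4b stood at 138 and 121 FPKM in the innervated libraries and at 7.24 and 6.79 FPKM in the denervated libraries, a log2 change of -4.13 ± 0.40 (edgeR adjusted p = 0.00276). Lynx1 stood at 124 and 110 FPKM against 10.3 and 3.70, a change of -3.98 ± 0.49 (adjusted p = 0.00465). Both genes were thus at least 10-fold above their denervated level in each innervated library. Apobec2, a member of the APOBEC deaminase family found mainly in striated muscle, was among the most abundant of all, at 656 and 804 FPKM in innervated against 81.7 and 46.8 FPKM in denervated muscle (-3.43 ± 0.37, adjusted p = 0.00345). Bdh1, a mitochondrial enzyme of ketone body use, fell from 81.1 and 113 FPKM to 7.57 and 2.59 FPKM (-4.18 ± 0.58, adjusted p = 0.00613). Mlf1 fell by 4.11 ± 0.57 on the log2 scale, and Asb11, a substrate adaptor of cullin ubiquitin ligases, by 3.05 ± 0.55. Without denervated library 1 the changes of Bdh1, Mlf1 and Lynx1 were larger, at -5.16, -4.98 and -4.90. Without denervated library 2 they were smaller, at -3.62, -3.59 and -3.43.

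The 6 abundant risers so chosen encode actin-binding proteins, a small GTPase, a P-type ATPase, a lectin and a heat shock protein. Aif1l (chr2:31805822-31828962, mm9), which encodes an actin-binding relative of allograft inflammatory factor 1, rose from 3.21 and 1.87 FPKM to 127 and 304 FPKM. Its log2 change of 6.47 ± 0.63 (adjusted p = 0.00276) was the largest of the 12 genes named at this level. Rrad, a Ras-related GTPase that inhibits voltage-gated calcium channels, went from 16.9 and 9.05 FPKM to 141 and 324 FPKM (4.24 ± 0.57, adjusted p = 0.00574). In both genes denervated library 2 held over 2 times the level of denervated library 1 and without it the changes of Aif1l and Rrad were 5.69 and 3.51. Atp13a3, a P5-type ATPase of endosomal membranes, rose from 8.47 and 7.99 FPKM to 103 and 151 FPKM (3.92 ± 0.33, adjusted p = 0.00221). Its change was 4.17 without denervated library 1 and 3.61 without denervated library 2. Hspb8, a small heat shock protein that works with the co-chaperone Bag3 in clearing damaged filaments, was already abundant in innervated muscle at 190 and 196 FPKM and reached 997 and 1930 FPKM (3.00 ± 0.33, adjusted p = 0.00384). Lgals3, the lectin galectin-3, rose by 3.31 ± 0.46, and Tmsb10, which binds actin monomers, by 3.03 ± 0.40. The change of Lgals3 was 3.97 without innervated library 1 and 2.87 without innervated library 2. Galectin-3 is also abundant in macrophages, of whose 14 markers Cd68 rose and none fell. Their summed level was 331 and 223 FPKM in innervated and 391 and 295 FPKM in denervated muscle, and its part in the change of Lgals3 was not tested. Of the 12 genes of these 2 paragraphs, 11 kept an adjusted p under 0.05 without innervated library 1 and 5 without innervated library 2, and all 12 kept it without either denervated library.

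**Figure D3:**
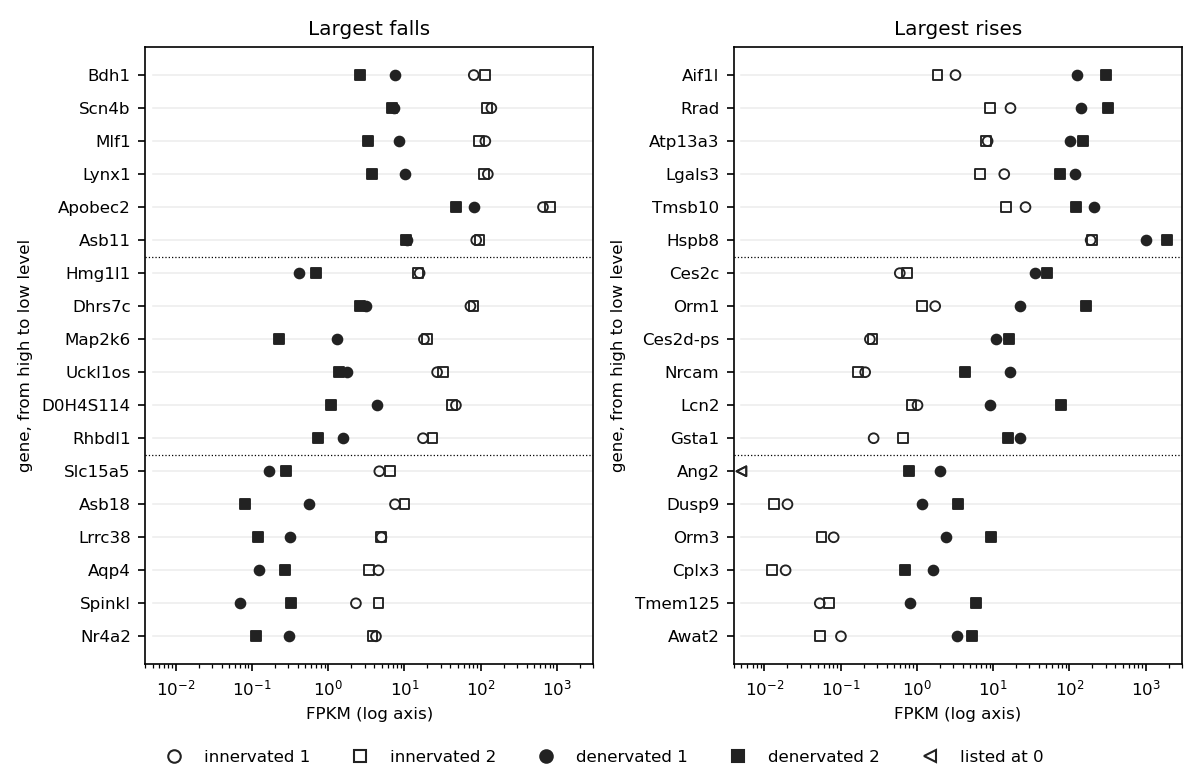
FPKM in each library (log axis) of the 36 genes with the largest falls (left) and rises (right) once the classic lists and already described genes are left out, 6 per direction in each of 3 levels separated by dotted lines; open symbols are innervated and filled symbols denervated libraries, circles the first and squares the second library, and a triangle marks a value listed at 0. Only called genes with separate groups could be chosen, so the open and filled symbols of the 36 genes do not overlap. The filled symbols spread most in Orm1, Lcn2 and Tmem125.

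At the middle level, Dhrs7c had the smallest SE of the 36 genes shown. It encodes a short-chain dehydrogenase of the sarcoplasmic reticulum (chr11:67611772-67629504, mm9). Its levels were 73.3 and 80.7 FPKM in innervated and 3.10 and 2.59 FPKM in denervated muscle, a log2 change of -4.67 ± 0.20 (adjusted p = 0.000598). Rhbdl1, a member of the rhomboid family of membrane proteases, fell from 17.5 and 23.4 FPKM to 1.58 and 0.746 FPKM (-4.02 ± 0.42, adjusted p = 0.00324). Map2k6, the kinase that activates p38 MAP kinase, fell from 18.0 and 19.9 FPKM to 1.31 and 0.228 FPKM (-4.55 ± 0.83, adjusted p = 0.0122). D0H4S114 fell by 4.02 ± 0.60, and Uckl1os, a transcript opposite to Uckl1, fell by 4.20 ± 0.52. The strand setting of the authors' counting is not given, so reads of Uckl1os and of its partner cannot be told apart. Hmg1l1, a close copy of the chromatin protein gene Hmgb1, was at 15.8 and 14.9 FPKM against 0.416 and 0.695 FPKM (-4.78 ± 0.36), a value that depends on how reads were split between copies. Without denervated library 1 the changes of Map2k6, D0H4S114 and Rhbdl1 were -6.34, -5.36 and -4.68. Without denervated library 2 those of Map2k6, D0H4S114 and Rhbdl1 were -3.83, -3.36 and -3.6.

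The risers chosen by size at the middle level include genes better known from liver, gut and nerve. Ces2c, a carboxylesterase, stood at 0.597 and 0.735 FPKM in innervated and 35.9 and 50.5 FPKM in denervated muscle, a log2 change of 6.12 ± 0.28 (adjusted p = 0.000598), and its neighbour Ces2d-ps rose by 5.81 ± 0.31. Nrcam, a cell adhesion molecule of neurons and nodes of Ranvier, went from 0.210 and 0.171 FPKM to 16.6 and 4.30 FPKM (5.80 ± 0.70, adjusted p = 0.00445). Unlike most risers it was higher in denervated library 1, and its change was 4.51 without that library and 6.46 without denervated library 2. Orm1, the acute-phase plasma protein orosomucoid, was at 1.74 and 1.17 FPKM in innervated muscle and at 22.8 and 166 FPKM in denervated muscle (6.07 ± 1.02, adjusted p = 0.00965). Lcn2, the iron-siderophore binding protein lipocalin 2, was at 1.02 and 0.849 FPKM against 9.16 and 78.1 FPKM (5.62 ± 1.06, adjusted p = 0.0133). For both genes denervated library 2 was over 7 times denervated library 1, and the changes of Orm1 and Lcn2 without it were 4.01 and 3.36, against 6.87 and 6.45 without denervated library 1. Neutrophils carry Lcn2 as well. The neutrophil marker list had a summed level of 5.83 and 14 FPKM in innervated and 31.1 and 74.0 FPKM in denervated muscle. Most of the latter was S100a8, at 25.2 and 57.9 FPKM. Of the 4 tested members of the list only S100a8 rose (3.48 ± 0.59, adjusted p = 0.00979). S100a9 (1.16), Retnlg (0.93) and Csf3r (-0.59) did not pass. The part of such cells in the changes of Orm1 and Lcn2 was not tested. Gsta1, a glutathione transferase, rose by 5.47 ± 1.22, and it shares sequence with close relatives. The change of Gsta1 was 6.2 without innervated library 2 and 4.91 without innervated library 1, where its adjusted p was 0.117 and 0.139. Of the 12 genes at the middle level, 7 kept an adjusted p under 0.05 without innervated library 1, 5 without innervated library 2, and 12 without either denervated library.

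Among genes of low level, several were at or near 0 in innervated muscle. Ang2, a ribonuclease of the angiogenin family, had 0 fragments in the innervated libraries and 44 in the denervated ones, at least 9.09-fold higher when the floor is set at 3 fragments over the group. Dusp9, a phosphatase of MAP kinases, had 3 fragments in innervated and 613 in denervated muscle, a ratio of 127 with a 95% counting interval of 43.1 to 616. Its levels in the denervated libraries were 1.18 and 3.43 FPKM. Orm3, of the orosomucoid family, had 3 and 376 fragments, a ratio of 77.6 (counting interval 26.4 to 378), with 2.40 and 9.46 FPKM in the denervated libraries. Cplx3, which encodes complexin 3, a binding partner of the SNARE proteins of exocytosis, had 3 and 399 fragments, a ratio of 82.4 (counting interval 28.0 to 401), with 1.65 and 0.701 FPKM in the denervated libraries. These intervals and the floor cover counting error only. Fitted changes of such genes depend on the prior count. That of Dusp9 was 6.09 without denervated library 2 and 7.62 without denervated library 1, that of Orm3 5.08 and 7.05, that of Cplx3 6.64 and 5.41, and that of Ang2 7.58 and 6.12. None of these 4 genes kept its call without either innervated library. Awat2, an acyltransferase that makes wax esters, rose from 0.101 and 0.0534 FPKM to 3.32 and 5.34 FPKM (5.79 ± 0.82, adjusted p = 0.00632). Tmem125 rose by 5.84 ± 1.15 with 0.809 and 6.01 FPKM in the denervated libraries. It was called in 11 of the alternatives and lost in both limma fits on FPKM, and its change was 6.65 without denervated library 1 and 3.77 without denervated library 2.

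The fallers chosen at the low level include membrane proteins and a nuclear receptor. Slc15a5, of the peptide transporter family, stood at 4.68 and 6.44 FPKM in innervated and 0.166 and 0.279 FPKM in denervated muscle (-4.64 ± 0.49, adjusted p = 0.00335). Aqp4, the water channel of fast fibres, stood at 4.56 and 3.39 FPKM against 0.124 and 0.275 FPKM (-4.34 ± 0.73, adjusted p = 0.00968). Its change was -3.86 without denervated library 1 and -5.01 without denervated library 2. Lrrc38, an auxiliary subunit of calcium-activated potassium channels, fell by 4.36 ± 0.70, and Nr4a2, an orphan nuclear receptor induced by activity in many cells, fell by 4.20 ± 0.51. Asb18, another cullin adaptor, fell from 7.51 and 10 FPKM to 0.557 and 0.0803 FPKM (-4.61 ± 0.95, adjusted p = 0.0174). Spinkl, a protease inhibitor of the Kazal type, fell by 4.26 ± 0.71. The changes without denervated library 1 were -6.65 for Asb18, -5.26 for Lrrc38, -5.15 for Nr4a2 and -3.41 for Spinkl. Those without denervated library 2 were -3.9 for Asb18, -3.87 for Lrrc38, -3.7 for Nr4a2 and -5.53 for Spinkl. Of the 12 genes at the low level, 3 kept an adjusted p under 0.05 without innervated library 1, 1 without innervated library 2, and 12 without either denervated library.

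A second set of 10 genes was taken for the smallest p rather than the largest change. Cacng1, the gamma-1 subunit of the skeletal muscle calcium channel, rose from 90.4 and 83.2 FPKM to 376 and 347 FPKM (2.14 ± 0.15, adjusted p = 0.00177). Cst6, a cystatin that inhibits cysteine proteases, rose from 3.79 and 3.86 FPKM to 25.0 and 30.2 FPKM (2.93 ± 0.17, adjusted p = 0.0013). Ankrd10 rose by 2.83 ± 0.18 and Fads3, of the fatty acid desaturase family, by 2.87 ± 0.20. Hmox1, heme oxygenase 1, rose from 5.80 and 7.23 FPKM to 30.9 and 29.8 FPKM (2.32 ± 0.17, adjusted p = 0.00177). On the falling side stood 2 secreted muscle factors, Ostn and Fndc5. Ostn, which encodes osteocrin (musclin), fell from 38.1 and 43.7 FPKM to 4.13 and 2.78 FPKM (-3.56 ± 0.24, adjusted p = 0.00176). Fndc5, the precursor of irisin, fell from 77.9 and 99.7 FPKM to 15.1 and 14.8 FPKM (-2.50 ± 0.17, adjusted p = 0.00176). Smtnl1, a smoothelin-like protein, fell by 2.90 ± 0.16, the fatty acid transporter Slc27a1 by 2.98 ± 0.19 and Hhatl by 2.57 ± 0.17. All 10 genes kept their call in all 16 alternatives, the leave-one-out fits included. The alternatives refit the libraries in which these genes were chosen for the smallest p, so this is not separate evidence.

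Promoters of these genes were read from RefSeq's annotation of GRCm38.p6, a later build than the mm9 of the expression tables. The 46 genes with the largest changes or smallest p were searched, and 14 of the 23 risers and 16 of the 23 fallers were in the promoter table, with 18 and 23 promoters of 250 bases before the transcript start. The E-box CAGCTG, the form often bound by myogenic factors such as myogenin, is printed in capitals because the series concerns Myog, and so is the AP-1 motif TGANTCA where it occurs (both motifs searched on both strands). The 4 promoters shown each hold 1 CAGCTG. Orm3 and Cplx3 are risers with 3 fragments each in innervated muscle, and Apobec2 and Asb18 are fallers. They lie at chr4:63355908-63356157 (Orm3, plus strand), chr9:57606282-57606531 (Cplx3, minus strand), chr17:48432729-48432978 (Apobec2, minus strand) and chr1:90014667-90014916 (Asb18, minus strand).
Orm3: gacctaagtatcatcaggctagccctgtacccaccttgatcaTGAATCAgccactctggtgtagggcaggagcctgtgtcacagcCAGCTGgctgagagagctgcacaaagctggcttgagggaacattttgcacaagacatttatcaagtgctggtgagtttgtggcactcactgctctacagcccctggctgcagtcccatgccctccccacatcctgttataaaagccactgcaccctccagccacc
Cplx3: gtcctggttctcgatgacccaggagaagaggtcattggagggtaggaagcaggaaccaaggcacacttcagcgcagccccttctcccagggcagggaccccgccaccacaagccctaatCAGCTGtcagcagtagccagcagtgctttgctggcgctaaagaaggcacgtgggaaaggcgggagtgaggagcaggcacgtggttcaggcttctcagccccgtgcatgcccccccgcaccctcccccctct
Apobec2: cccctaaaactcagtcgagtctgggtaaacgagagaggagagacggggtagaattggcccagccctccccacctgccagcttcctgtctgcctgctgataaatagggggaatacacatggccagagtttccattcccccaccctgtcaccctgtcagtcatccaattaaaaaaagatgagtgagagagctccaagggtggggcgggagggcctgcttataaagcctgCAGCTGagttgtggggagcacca
Asb18: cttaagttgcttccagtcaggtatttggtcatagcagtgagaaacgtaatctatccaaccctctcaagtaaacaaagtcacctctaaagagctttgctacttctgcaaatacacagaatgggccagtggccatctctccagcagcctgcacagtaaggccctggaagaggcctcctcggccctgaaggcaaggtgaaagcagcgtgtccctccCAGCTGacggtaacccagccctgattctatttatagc
CAGCTG was in 16.7% of the promoters of the risers and 26.1% of those of the fallers, against 12.2% of 10855 promoters of all genes tested and 13.0% of 32851 in the table. Over all called genes the shares were 11.7% of 1612 promoters of genes that rose and 15.0% of 1589 of genes that fell. The general E-box CANNTG, which includes CAGCTG, was in 72.2% and 69.6% of the promoters of the 2 sets. It was in 57.9% of the promoters of all genes tested and 66.2% of those in the table. Over all called genes it was in 56.5% for genes that rose and 62.7% for genes that fell. AP-1 was in 5.56% and 8.7%, against 4.59% for all genes tested, 6.75% in the table, and 4.65% and 5.66% for all genes that rose and fell. The cAMP response element TGACGTCA was in 0.0% and 4.35%, against 2.51% for all genes tested, 1.55% in the table, and 2.54% and 2.01% for all genes that rose and fell. The shares count promoters and not genes, so a gene with several promoters counts more than once. Among the fallers, both promoters of Uckl1os hold CAGCTG. With 18 and 23 promoters, 1 promoter more or less moves these shares by several points, and a match is a description of letters only.

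**Figure D4:**
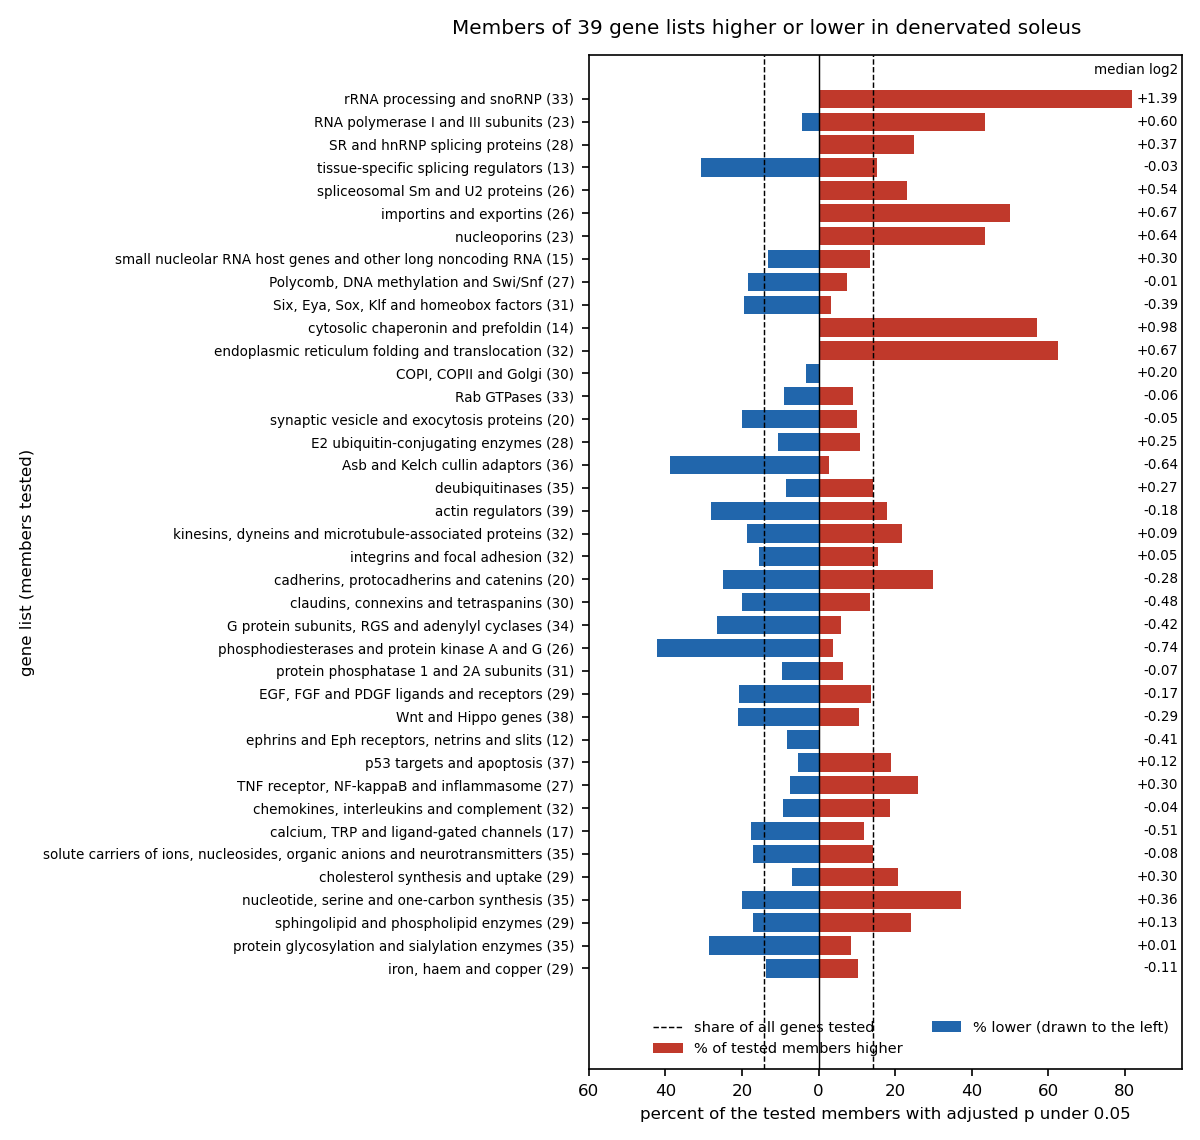
For each of 39 gene lists (number of members tested in brackets), the red bar is the percentage of tested members that rose and the blue bar, drawn to the left, the percentage that fell; dashed lines mark the 14.4% and 14.3% of all genes tested, and the right-hand column is the median log2 fold change. The lists of rRNA processing, importins, nucleoporins, chaperonin and endoplasmic reticulum folding extend only to the right, and those of Asb and Kelch adaptors and phosphodiesterases furthest to the left.

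The gene lists covered 40 families outside the classic denervation lists, and were compared with 14.4% higher and 14.3% lower and a median of 0.0 over all genes tested. In 7 lists at least 1 member rose and none fell, and in 2 at least 1 fell and none rose. With library totals alone, 11 of the 20 lists with a median below 0 moved above 0, and none of these had a median larger than 0.18 in size. Medians are therefore given below only for lists beyond that size. The smallest of these, -0.29 and 0.30, are still close to the 0.26 by which all genes shift on library totals. Summed over the 40 lists, 227 members were called higher and 166 lower, against 401 and 108 with library totals alone. These sums were 22 and 23 without innervated library 1, 9 and 7 without innervated library 2, 340 and 254 without denervated library 1, and 197 and 124 without denervated library 2.

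Genes of ribosome assembly rose as a group. Of 33 tested genes of rRNA processing and of small nucleolar RNA-protein complexes, 27 rose and none fell, with a median of 1.39. Nhp2, a core protein of the box H/ACA complexes that guide pseudouridylation of rRNA, stood at 16.8 and 17.5 FPKM in innervated and 63.7 and 132 FPKM in denervated muscle (2.60 ± 0.35, adjusted p = 0.00574). Bop1, a factor of large-subunit assembly, went from 10.4 and 12.1 FPKM to 32.6 and 51.9 FPKM (2.01 ± 0.25, adjusted p = 0.00468). Nop58, a core protein of box C/D complexes, rose by 2.14 ± 0.51 and Nop16 by 2.13 ± 0.46. Denervated library 2 was the higher for all of them, and without it the changes of Nhp2, Nop58 and Nop16 were 1.98, 1.12 and 1.2. Of 23 subunits and factors of RNA polymerases I and III, which transcribe rRNA and tRNA, 10 rose and 1 fell (median 0.60). Polr3g rose by 2.90 ± 0.38 from 0.702 and 0.802 FPKM to 3.66 and 7.40 FPKM, Polr1e by 2.40 ± 0.41, and Polr1b by 1.81 ± 0.32. Without denervated library 2, Polr3g was at 2.3 and Polr1e at 1.7. For the list of rRNA processing, the count of members higher was 0 without either innervated library, 32 without denervated library 1 and 24 without denervated library 2, while its median stayed between 0.82 and 1.8.

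Splicing factors and nuclear transport followed the same direction with smaller changes. Of 26 importins, exportins and Ran-cycle genes, 13 rose and none fell (median 0.67). Ran, the GTPase that sets the direction of transport, went from 42.6 and 46.2 FPKM to 103 and 143 FPKM (1.49 ± 0.20, adjusted p = 0.00571). Its activating protein Rangap1 rose by 1.54 ± 0.20 and Kpnb1, importin beta 1, by 1.36 ± 0.21. Ranbp1 rose by 1.56 ± 0.40, with 0.82 without denervated library 2, and its call was lost in both limma fits. Of 23 nucleoporins, 10 rose and none fell (median 0.64), among them Nup93 (1.14 ± 0.16) and Nup210 (1.06 ± 0.21). Of 28 SR and hnRNP splicing proteins 7 rose and none fell (median 0.37), and of 26 Sm and U2 proteins 6 rose and none fell (median 0.54). Snrpa1, the A' protein of the U2 particle, rose by 1.72 ± 0.26, and Hnrnpr by 0.90 ± 0.16. Without denervated library 2, or without either library of the double mutant, 1 member of the SR and hnRNP list and 4 of the Sm and U2 list were called higher.

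Regulators with tissue-specific roles in RNA and chromatin moved in both directions. Of 13 tissue-specific splicing regulators 2 rose and 4 fell. The CUG-binding proteins Celf1 and Celf2 rose by 1.10 ± 0.22 and 0.97 ± 0.17, while the neuronal regulator Nova1 fell by 1.41 ± 0.28 and Khdrbs3 by 1.27 ± 0.26. Khdrbs3 stood at 36.8 and 34.3 FPKM against 17.7 and 10.9 FPKM. Of 27 Polycomb, DNA methylation and Swi/Snf genes, 2 rose and 5 fell. The de novo DNA methyltransferase Dnmt3a fell from 10.2 and 8.97 FPKM to 3.49 and 2.47 FPKM (-1.60 ± 0.25, adjusted p = 0.00806), and the remodelling ATPase Smarca4 rose by 0.92 ± 0.16. Of 31 Eya, Sox, Klf and homeobox factors 1 rose and 6 fell (median -0.39). The 3 largest falls were in Klf2, Klf4 and Klf15. Klf15, a glucocorticoid-responsive factor, stood at 20.9 and 34.6 FPKM against 7.96 and 7.71 FPKM (-1.73 ± 0.25, adjusted p = 0.00648). Klf2, a factor of endothelial cells, was at 17.5 and 47.9 FPKM in the innervated libraries and at 7.15 and 7.14 FPKM in the denervated ones, and its change of -2.14 ± 0.49 was -1.25 without innervated library 2. Without denervated library 2 its adjusted p was 0.0623. Endothelial markers fell as well, as given above, and their part in the change of Klf2 was not tested. Of the long noncoding RNAs and snoRNA host genes, 2 of 15 rose and 2 fell. Neat1, the scaffold of nuclear paraspeckles, was at 974 and 812 FPKM against 418 and 461 FPKM (-0.99 ± 0.20, adjusted p = 0.0154). Of the 40 most changed called members of these 10 lists of RNA and the nucleus (4 per list), 3 kept an adjusted p under 0.05 without innervated library 1, none without innervated library 2, all 40 without denervated library 1, and 31 without denervated library 2.

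Genes of protein folding rose in the cytosol and in the endoplasmic reticulum, and 1 of 30 genes of the secretory pathway beyond it passed the test. Of 14 tested genes of the cytosolic chaperonin and prefoldin, 8 rose and none fell (median 0.98). The chaperonin is the ring that folds actin and tubulin. Its subunit Cct3 stood at 40.9 and 41.2 FPKM in innervated and 99.2 and 163 FPKM in denervated muscle (1.74 ± 0.25, adjusted p = 0.00647), and Cct6a, Cct5 and Cct7 rose by 1.57 ± 0.26, 1.43 ± 0.25 and 1.36 ± 0.19. Of 32 genes of endoplasmic reticulum folding and translocation, 20 rose and none fell (median 0.67). Sdf2l1, a cofactor of the chaperone BiP, rose from 2.39 and 2.47 FPKM to 9.61 and 11.4 FPKM (2.18 ± 0.23, adjusted p = 0.00324). Xbp1, a transcription factor of the unfolded protein response, rose from 29.9 and 27.6 FPKM to 58.8 and 91.7 FPKM (1.45 ± 0.24, adjusted p = 0.00914), and the disulfide isomerase Pdia6 rose by 1.27 ± 0.19. Of 30 genes of COPI, COPII and the Golgi, none rose and 1 fell. At library totals alone that list had 12 members higher, and the endoplasmic reticulum list 31.

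Vesicle proteins changed one by one. Of 33 Rab GTPases, 3 rose and 3 fell. Rab3a, the Rab of synaptic and other regulated vesicles, fell from 18.8 and 21.4 FPKM to 4.09 and 0.902 FPKM (-2.91 ± 0.73, adjusted p = 0.0293). Its change was -4.39 without denervated library 1 and -2.22 without denervated library 2. Rab28 fell by 1.13 ± 0.16 and Rab5a, of early endosomes, rose by 0.70 ± 0.15. Of 20 synaptic vesicle and exocytosis genes, 2 rose and 4 fell. The calcium sensor relative Syt4 rose from 0.132 and 0.175 FPKM to 1.15 and 1.03 FPKM (2.83 ± 0.30, adjusted p = 0.00346). The syntaxin Stx11 rose by 3.56 ± 0.52, or 2.74 without denervated library 2. Syp, the vesicle protein synaptophysin, fell by 1.60 ± 0.29. Of the 17 most changed called members of these 5 lists of folding and traffic, 2 kept an adjusted p under 0.05 without innervated library 1, 1 without innervated library 2, and 16 without either denervated library alone.

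In the ubiquitin system outside the known atrophy ligases, more substrate adaptors fell than rose, while conjugating enzymes and deubiquitinases were mixed. Of 36 tested Asb and Kelch adaptors, which bring substrates to cullin ligases, 14 fell and 1 rose (median -0.64). Klhl33 stood at 19.4 and 16.4 FPKM in innervated and 1.72 and 1.22 FPKM in denervated muscle (-3.52 ± 0.35, adjusted p = 0.00305), and kept its call in every alternative run. Asb12 fell from 23.7 and 28.1 FPKM to 5 and 1.5 FPKM (-2.93 ± 0.56, adjusted p = 0.0135), with -4.06 and -2.32 without denervated library 1 and 2. With Asb11 and Asb18, described above, 3 of the 4 most changed members were Asb genes. Of 28 E2 enzymes 3 rose and 3 fell. Ube2b was the most abundant of those named, at 231 and 222 FPKM against 110 and 115 FPKM (-1.02 ± 0.14, adjusted p = 0.00626), and Ube2d1 fell by 0.79 ± 0.13. Of 35 deubiquitinases 5 rose and 3 fell. Usp28 rose by 1.19 ± 0.15 and Usp14, a proteasome-bound enzyme, by 0.97 ± 0.18, while Usp13 fell by 1.08 ± 0.17. Of the 12 most changed members of these 3 lists, 1 kept an adjusted p under 0.05 without either innervated library alone, 12 without denervated library 1 and 10 without denervated library 2.

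Genes of the cytoskeleton changed in both directions. Of 39 actin regulators, 7 rose and 11 fell. Profilin 1 (Pfn1), which feeds actin monomers to growing filaments, rose from 172 and 178 FPKM to 441 and 547 FPKM (1.57 ± 0.20, adjusted p = 0.00476), and Vasp, which promotes filament growth, from 8.91 and 14.1 FPKM to 42.5 and 54.8 FPKM (2.18 ± 0.26, adjusted p = 0.00421). With library totals alone 3 actin regulators were called lower, and without denervated library 2, 2. Of 32 kinesin, dynein and microtubule-associated genes, 7 rose and 6 fell. The dynein light intermediate chain Dync1li1 rose from 16.1 and 17.1 FPKM to 40.4 and 41.9 FPKM (1.37 ± 0.14, adjusted p = 0.00311). The stathmin Stmn4, of a family that sequesters tubulin, fell by 3.23 ± 0.56. Its change was -4.13 without denervated library 1 and -2.74 without denervated library 2. Of 32 integrin and focal adhesion genes 5 rose and 5 fell. The paralogs talin 1 and talin 2, which link integrins to actin, went in opposite directions: Tln1 rose from 17.3 and 18.2 FPKM to 44.6 and 37.2 FPKM (1.30 ± 0.21), and Tln2 fell from 11.1 and 10.2 FPKM to 5.25 and 3.4 FPKM (-1.21 ± 0.22), with adjusted p of 0.00912 and 0.0118.

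Junction and membrane organisers outside the synapse also split. Of 20 cadherins, protocadherins and catenins, 6 rose and 5 fell. Ctnna3, an alpha-catenin of striated muscle, fell from 4.11 and 7.86 FPKM to 0.773 and 0.547 FPKM (-3.02 ± 0.41, adjusted p = 0.0059), and Pcdh12, of endothelial cells, by 1.88 ± 0.36. The desmosomal plakophilin Pkp2 rose by 1.44 ± 0.19. Of 30 claudins, connexins and tetraspanins, 4 rose and 6 fell (median -0.48). The tetraspanin Cd82 rose from 11 and 8.62 FPKM to 57.3 and 97.3 FPKM (3.04 ± 0.35, adjusted p = 0.00404), and Cd63, the tetraspanin of late endosomes and exosomes, from 118 and 117 FPKM to 331 and 358 FPKM (1.59 ± 0.15, adjusted p = 0.00247). The channel protein Panx1 rose by 1.89 ± 0.22. Of the 20 most changed members of these 5 lists of cytoskeleton and adhesion, 9 kept an adjusted p under 0.05 without innervated library 1, 1 (Vasp) without innervated library 2, 20 without denervated library 1 and 15 without denervated library 2.

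Cyclic nucleotide signalling had the highest share of falling members of the 40 lists. Of 26 phosphodiesterases, protein kinases A and G and anchoring proteins, 11 fell and 1 rose (median -0.74). Pde4a, which degrades cAMP, stood at 12.1 and 12.6 FPKM in innervated and 1.58 and 0.448 FPKM in denervated muscle (-3.53 ± 0.67, adjusted p = 0.0133). Prkg1, the cGMP-dependent kinase, stood at 10.4 and 11.6 FPKM against 2.08 and 0.947 FPKM (-2.84 ± 0.42, adjusted p = 0.00707). Without denervated library 1 these changes were -4.74 and -3.54, and without denervated library 2 they were -2.9 and -2.38. Pde7b fell by 1.76 ± 0.27 and the anchoring protein Akap12 by 1.67 ± 0.35. Prkg1 is abundant in smooth muscle, whose markers fell in 7 of 11 members, and the part of that tissue was not tested. Of 34 G protein subunits, RGS proteins and adenylyl cyclases, 9 fell and 2 rose (median -0.42), among them Gng7 (-1.87 ± 0.40), Gnai1 (-1.47 ± 0.30) and Rgs4 (-1.43 ± 0.25). Of 31 subunits of protein phosphatases 1 and 2A 2 rose and 3 fell. The inhibitor Ppp1r14b rose by 2.08 ± 0.41, or 1.42 without denervated library 2, and the glycogen-targeting subunit Ppp1r3a fell by 1.22 ± 0.29.

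Among ligands, receptors and their antagonists, the Wnt and Hippo list had 8 of 38 members lower and 4 higher (median -0.29). The Wnt antagonists Dkk2 and Frzb both fell. Frzb stood at 3.03 and 2.91 FPKM against 0.497 and 0.290 FPKM (-2.88 ± 0.41, adjusted p = 0.00642), and Dkk2 at 11 and 9.41 FPKM against 1.53 and 0.196 FPKM (-3.51 ± 0.83, adjusted p = 0.0255), with -5.67 without denervated library 1 and -2.71 without denervated library 2. Members of the pathway that binds TEAD factors went in opposite directions. Tead4, a TEAD factor, rose from 3.44 and 3.41 FPKM to 15.8 and 24.1 FPKM (2.64 ± 0.24, adjusted p = 0.00246). Its muscle co-factor Vgll2 fell from 57.2 and 121 FPKM to 18.5 and 6.30 FPKM (-2.75 ± 0.58, adjusted p = 0.0184). The change of Vgll2 was -3.19 and -2.13 without innervated library 1 and 2, and -3.74 and -2.18 without denervated library 1 and 2. Of 29 EGF, FGF and PDGF ligands and receptors 4 rose and 6 fell. Fgf1 fell from 32.1 and 34.9 FPKM to 7.64 and 11.3 FPKM (-1.78 ± 0.24, adjusted p = 0.00593), Pdgfb, made largely by endothelium, fell by 1.79 ± 0.24, and the EGF family member Epgn rose by 2.67 ± 0.53 from 0.130 and 0.173 FPKM to 0.696 and 1.22 FPKM, a call lost in limma on log2(FPKM + 1). Of 12 ephrins, Eph receptors, netrins and slits with their receptors, 1 fell, the endothelial Robo4 (-1.28 ± 0.27).

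In stress and immune signalling the counts lay nearer to the background. Of 37 p53 targets and apoptosis genes, 7 rose and 2 fell. Cdkn1a, the cell cycle inhibitor p21, went from 12.6 and 13.0 FPKM to 110 and 324 FPKM (4.14 ± 0.58, adjusted p = 0.00625), and the ectodysplasin A2 receptor Eda2r from 5.14 and 5.07 FPKM to 37.1 and 75.4 FPKM (3.46 ± 0.40, adjusted p = 0.00407). Without denervated library 2 their changes were 3.15 and 2.88. The pro-apoptotic Bid and Bak1 rose by 2.43 ± 0.34 and 1.20 ± 0.18. Of 27 TNF receptor, NF-kappaB and inflammasome genes 7 rose and 2 fell (median 0.30). The decoy receptor Tnfrsf23 rose from 1.53 and 1.27 FPKM to 9.08 and 11.5 FPKM (2.92 ± 0.21, adjusted p = 0.00177), Nfkb2 rose by 1.37 ± 0.14, and Tnfaip2 fell by 2.63 ± 0.41. Of 32 chemokines, interleukins and complement genes 6 rose and 3 fell. The monocyte chemoattractants Ccl2 and Ccl7 rose by 1.59 ± 0.34 and 2.44 ± 0.42. The change of Ccl7 was 3.18 without innervated library 1 and 2.0 without innervated library 2. Cxcl14 rose from 23.7 and 22.5 FPKM to 95 and 57.5 FPKM (1.79 ± 0.26, adjusted p = 0.00654). Il15, a cytokine made by muscle fibres, fell from 5.97 and 4.58 FPKM to 1.45 and 0.675 FPKM (-2.24 ± 0.47, adjusted p = 0.0176). Its change was -2.92 without denervated library 1 and -1.82 without denervated library 2. Of the 37 most changed members of the 10 signalling lists, 8 kept an adjusted p under 0.05 without innervated library 1, 3 without innervated library 2, all without denervated library 1 and 34 without denervated library 2.

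Nucleotide synthesis was the small-molecule list with the most risers. Of 35 genes of nucleotide, serine and one-carbon synthesis, 13 rose and 7 fell (median 0.36). Impdh1, the committed enzyme of guanine nucleotide synthesis, rose from 7.87 and 8.46 FPKM to 28.9 and 32.8 FPKM (2.01 ± 0.16, adjusted p = 0.00193) and kept its call in every alternative. Ctps, which makes CTP, rose by 2.46 ± 0.38, or 1.75 without denervated library 2. The purine nucleotide cycle of muscle split: Adssl1, its muscle adenylosuccinate synthase, fell from 409 and 422 FPKM to 108 and 58.4 FPKM (-2.23 ± 0.33, adjusted p = 0.00672), while the AMP deaminase Ampd3 rose from 13.6 and 12.6 FPKM to 37.7 and 90.5 FPKM (2.36 ± 0.40, adjusted p = 0.00996), or by 1.59 without denervated library 2. Of 29 genes of cholesterol synthesis and uptake 6 rose and 2 fell (median 0.30, but -0.06 without denervated library 1). Fdft1, squalene synthase, fell from 24.9 and 26.4 FPKM to 8.06 and 7.66 FPKM (-1.65 ± 0.15, adjusted p = 0.00251), while Srebf2, the transcription factor of the pathway, rose by 1.15 ± 0.17.

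Of 29 sphingolipid and phospholipid genes 7 rose and 5 fell. Ugcg, which makes glucosylceramide, rose from 6.28 and 5.73 FPKM to 36.2 and 77.8 FPKM (3.22 ± 0.43, adjusted p = 0.00584), or by 2.56 without denervated library 2, and Lpin2 rose by 2.67 ± 0.32. The phospholipase Pla2g16, of adipose tissue, fell from 85.2 and 112 FPKM to 26.8 and 31.5 FPKM (-1.74 ± 0.19, adjusted p = 0.00361) beside the fall of all 9 adipocyte markers. Of 35 glycosylation and sialylation enzymes 3 rose and 10 fell. The polysialyltransferase St8sia2, which modifies the adhesion molecule NCAM, rose from 0.175 and 0.187 FPKM to 0.796 and 0.850 FPKM (2.24 ± 0.37, adjusted p = 0.00915), and its relative St8sia5 fell by 1.77 ± 0.26. Of 29 iron, haem and copper genes 3 rose and 4 fell. The transferrin receptor Tfrc fell from 27.5 and 27.3 FPKM to 8.22 and 7.65 FPKM (-1.81 ± 0.22, adjusted p = 0.00438), Alas1 by 1.53 ± 0.26, and Hfe2, hemojuvelin, from 308 and 343 FPKM to 142 and 80.4 FPKM (-1.48 ± 0.28, adjusted p = 0.0133).

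Of 17 calcium, TRP and ligand-gated channels outside the junction 2 rose and 3 fell (median -0.51). Cacnb1 rose by 0.89 ± 0.14 together with Cacng1, another subunit of the same channel, and the ATP-gated channel P2rx6 fell by 2.67 ± 0.55. The change of P2rx6 was -3.56 without denervated library 1 and -2.14 without denervated library 2. Of 35 solute carriers of ions, nucleosides, organic anions and transmitters 5 rose and 6 fell. Slc41a3, of a magnesium transporter family, fell from 27.2 and 24.2 FPKM to 2.51 and 3.60 FPKM (-2.97 ± 0.25, adjusted p = 0.00221), and the sodium-proton exchanger Slc9a9 rose from 1.42 and 1.26 FPKM to 6.81 and 6.37 FPKM (2.35 ± 0.23, adjusted p = 0.00276). Both kept their call in every alternative. Of the 28 most changed members of these 7 lists of membrane and small-molecule genes, 10 kept an adjusted p under 0.05 without innervated library 1, 7 without innervated library 2, 28 without denervated library 1 and 27 without denervated library 2.

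In places, genes that changed in the same direction were next to each other in the order of tested genes. Ordered by position, 44 runs of 3 or more neighbouring tested genes changed at least 2-fold in one direction, 17 upward and 27 downward, with 140 genes in all and no run longer than 4. Of all genes tested, 8.2% rose and 9.5% fell at least 2-fold, and how many runs a random order would give was not tested. Some runs reach 3 only by counting entries of the same coordinates apart, such as Atp1b1 and Nme7, or Camk2n2 and Ece2. Neighbours can lie far apart, as in the run at chr12:45953472-51750210. The orosomucoid genes Orm1, Orm3 and Orm2 formed 1 run (chr4:63005599-63026911, mm9), with Orm1 and Orm3 described above. Orm2 went from 0.0308 and 0.0896 FPKM to 12.6 and 75.0 FPKM, or from 3 to 2628 fragments, a ratio of 543 (counting interval 186 to 2630). Its fitted change ranged from 7.43 without denervated library 2 to 10 without denervated library 1. None of the 3 genes kept an adjusted p under 0.05 without either innervated library, and all 3 kept it without either denervated library. The carboxylesterases Ces2c, Ces2d-ps and Ces2g with their neighbour Cbfb formed another (chr8:107370967-107741888), at 6.12, 5.81, 2.94 and 1.33, of which 2 of 4 stayed called without either innervated library and 4 without either denervated library. Members of such families are near copies, and how the authors' counting split reads between them is not given.

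**Figure D5:**
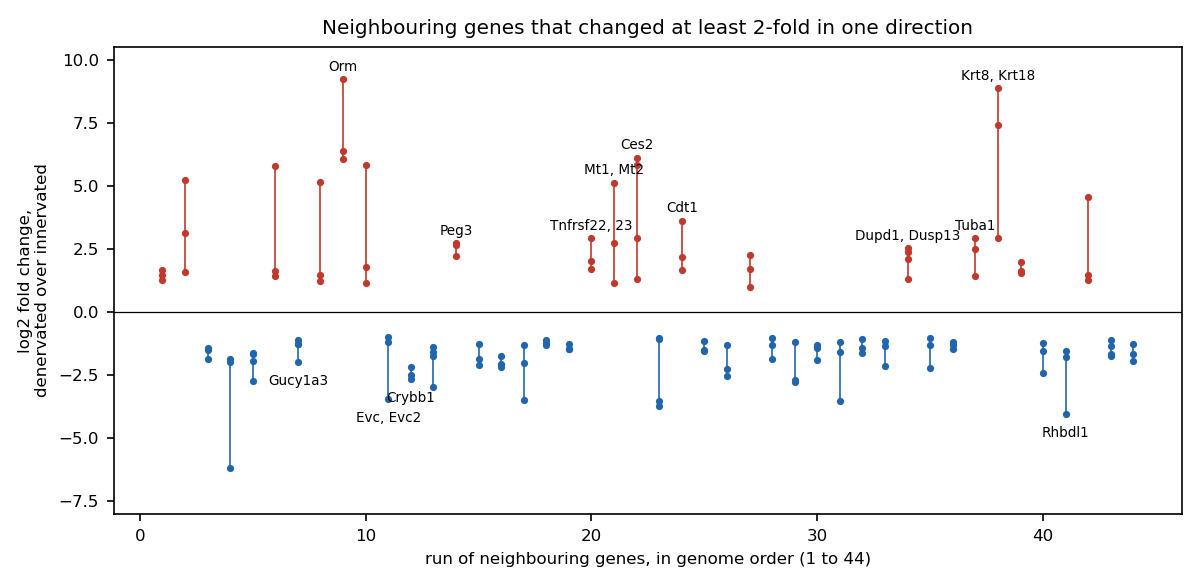
Each vertical group of points is 1 of the 44 runs of neighbouring genes in genome order, and each point is a gene's log2 fold change, denervated over innervated (red runs higher, blue runs lower). The Orm and keratin runs hold the largest rises, 9.23 for Orm2, a fitted value that depends on the prior count and was 7.43 without denervated library 2, and 8.87 for Krt8.

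Other runs held related cytoskeletal genes. The alpha-tubulins Tuba1b, Tuba1a and Tuba1c (chr15:98761861-98868536) rose by 2.93 ± 0.22, 1.43 ± 0.16 and 2.48 ± 0.21. Tuba1b went from 34.5 and 35.0 FPKM to 207 and 291 FPKM (adjusted p = 0.00177), and beside it stands the rise of the tubulin-folding chaperonin. On the same chromosome the keratins Krt80, Krt8 and Krt18 (chr15:101180001-101862457) rose by 2.95 ± 0.29, 8.87 ± 0.72 and 7.43 ± 0.87, the last by 8.32 without innervated library 1. Krt8 and Krt18, the keratin pair of simple epithelia, stood at 0.0956 and 0.0725 FPKM and at 0.582 and 0.227 FPKM in innervated muscle, and at 44.8 and 31.1 FPKM and 80.8 and 55.5 FPKM in denervated muscle. Krt80 stood at 1.79 and 1.89 FPKM against 10.1 and 16.4 FPKM, and kept its call in every alternative. In each of these 2 runs, 3 of 3 genes stayed called without innervated library 1, 2 without innervated library 2 and 3 without either denervated library.

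Other upward runs joined gene relatives to unlike neighbours. Dupd1 and Dusp13, both dual-specificity phosphatases, rose with Samd8 and Comtd1 (chr14:22495793-22668132). Dupd1 stood at 31.3 and 38.7 FPKM against 162 and 178 FPKM (2.38 ± 0.18, adjusted p = 0.00177), and Samd8, a relative of sphingomyelin synthases, at 5.08 and 5.07 FPKM against 24.3 and 34 FPKM (2.52 ± 0.21, adjusted p = 0.00221). Dusp13 rose by 2.10 ± 0.38, or 1.46 without denervated library 2. The decoy receptors Tnfrsf22 and Tnfrsf23 rose with Osbpl5 (chr7:150822629-150927868). In the imprinted Peg3 domain, Zim1, Apeg3 and Peg3 (chr7:6628153-6683130) rose by 2.21 ± 0.48, 2.74 ± 0.44 and 2.64 ± 0.30, and Zim1 by 3.02 without innervated library 1. Apeg3 is antisense to Peg3, so with the strand setting unknown its reads may belong to Peg3. The DNA replication licensing factor Cdt1 rose with Aprt and Galns (chr8:125091914-125135387). Cdt1 was at 0.222 and 0.433 FPKM against 1.5 and 5.98 FPKM (3.62 ± 0.75, adjusted p = 0.0174), with a change of 2.3 without denervated library 2 and 4.31 without denervated library 1. Aprt rose by 1.67 ± 0.35, or 1.01 without denervated library 2. Without either innervated library 2 of 4 genes of the Dupd1 run stayed called, and 1 of 3 in each of the Tnfrsf22, Peg3 and Cdt1 runs. All genes of these 4 runs stayed called without either denervated library.

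Among downward runs, 4 class I genes of the major histocompatibility complex, H2-Gs10, H2-Q8, H2-Q6 and H2-Q7 (chr17:35516561-35580718), fell by 1.10 ± 0.22, 1.66 ± 0.36, 1.74 ± 0.37 and 1.33 ± 0.36. They are near copies, and without denervated library 2 the adjusted p was 0.0502 for H2-Q8 and 0.103 for H2-Q7. None of the 4 stayed called without either innervated library, with adjusted p of up to 0.147 and 0.173. The lens crystallins Cryba4 and Crybb1 fell with Mn1 (chr5:111847185-112698602), by 2.16 ± 0.45, 2.65 ± 0.34 and 2.50 ± 0.51. Crybb1 was at 3.78 and 4.40 FPKM against 0.563 and 0.646 FPKM. Evc, a component of the primary cilium's Hedgehog machinery, fell from 12.9 and 15.1 FPKM to 1.28 and 1.13 FPKM (-3.43 ± 0.25, adjusted p = 0.00177), next to its divergent partner Evc2 (-1.17 ± 0.19). Evc kept its call in every alternative. Klf15 and Slc41a3, both described above, lay in 1 run with Aldh1l1 and Iqsec1 (chr6:90412619-90760117). Without denervated library 2 the adjusted p of Aldh1l1 was 0.0747. Without innervated library 1, 1 of 3 genes of the Mn1 run, 1 of 3 of the Evc run and 2 of 4 of the Klf15 run stayed called, and without innervated library 2 none, 1 and 1. The counts without denervated library 2 were 3, 2 and 3.

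In some genes the 2 denervated libraries disagreed too much for a call. Of genes of at least 5 FPKM, the 6 with the widest gap between denervated libraries were Plin5, Tpt1, Gm889, Ky, Myh7b and Col3a1. Plin5, a lipid droplet protein of oxidative tissue, stood at 41.8 and 33.4 FPKM in innervated muscle but at 0.802 and 17.3 FPKM in denervated muscle (-1.93 ± 1.12, adjusted p = 0.23). Ky, a Z-disc protein, stood at 20.9 and 14.8 FPKM against 4.93 and 0.359 FPKM (-2.68 ± 1.27, adjusted p = 0.152). The collagen gene Col3a1 stood at 148 and 67.7 FPKM against 73.6 and 6.93 FPKM (-1.34 ± 1.01, adjusted p = 0.346). In Plin5 and Ky both denervated libraries lay below both innervated libraries, and in Col3a1 the groups overlapped. Tpt1 differed more between the runs than between innervated and denervated muscle, and its innervated libraries disagreed as well. It had 12674 and 33202 fragments, not scaled to library size, in the first innervated and denervated libraries. In the second ones it had 662 and 1344.

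At the other extreme, the interval of the change was narrow and near 0 for some abundant genes. Among those with the narrowest 95% interval lying within -0.5 to 0.5, Commd3 had an interval from -0.45 to 0.43, the sorting nexin Snx3 from -0.40 to 0.48, and the glutathione transferase Gstm5 from -0.46 to 0.41. The intervals were built from the SE with 3 residual degrees of freedom and are not those of edgeR's own test. They do not reach 1.5-fold in either direction. On library totals alone all genes shift up by 0.26, and these genes with them.

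Of 1078 predicted or clone-named transcripts, 105 (9.74%) rose and 138 (12.8%) fell, against 14.8% and 14.4% of 11035 named genes. By chromosome, 11.5% to 16.3% of the tested genes on each autosome rose and 11% to 16.9% fell. On the X chromosome 18.0% of 384 rose and 9.64% fell. Genes listed under 0.1 FPKM in both innervated and at least 1 FPKM in both denervated libraries numbered 30, of which 9 passed the test. Most of the 30 are microRNA or small nucleolar RNA entries, which are short, so that few fragments give a large FPKM. In the opposite direction there were 8, of which 3 passed. The counts of 30 and 8 cannot be set against each other, because the filter on mean FPKM covered all 6 libraries, most of them denervated. A gene present only in innervated muscle needed a higher level there to be tested.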

How the data were processed

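Polyadenylated RNA of 6 soleus muscle libraries was sequenced. The build mm9 and the tools Cuffdiff 2.0.2, TopHat2 2.0.3, Trim Galore 0.2.1, CASAVA 1.8.2 and Bowtie2 2.0.0.7 were used, per the submitters' processing notes, which are read here without their roles. The authors deposited, for each library, estimated counts (fragments per gene, not all whole) and FPKM values that carry a scaling factor per library. FPKM values are printed as deposited. Each gene appears 3 times in the files and was used once. Several entries of a symbol were summed.

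The estimated counts were rounded and fitted with edgeR 4.0.16 (R 4.3.3) as group means of all 3 groups, with TMM scaling. The 12247 genes tested had a mean of at least 0.5 FPKM over all 6 libraries. With 6 libraries in 3 groups, 3 residual degrees of freedom remained, and the script was tested on simulated data. Alternatives were DESeq2 1.42.0, limma 3.58.1 on log2(FPKM + 0.5) or log2(FPKM + 1), other scalings and filters, only the 4 wild-type libraries, a replicate block, and each library left out in turn.

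The named genes were taken from called genes with separate groups, leaving out classic and already described genes, unnamed transcripts and joined entries. They were the 6 largest changes per direction in each of 3 levels, the next 5 per direction by p, up to 4 called members per list, the genes of the runs, and genes with the widest gap between denervated libraries or the narrowest interval near 0. Which of the 44 runs are described was chosen after their values were seen. Members and lists were chosen with earlier results of these data known. The sources used here give neither the strand setting nor the counting method. A gene and a list that the rule covers are not reported here.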

Additional observations from a re-analysis of the deposited data

How the results depend on the processing

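No call changed its direction in any of the 16 alternatives, which the separate groups of every called gene made unlikely in advance. With library totals alone, 3331 genes were called higher and 1144 lower, 1673 and 725 of them at least 2-fold, and 328 and 118 beyond 2-fold by test. Limma on log2(FPKM + 1) gave 634 genes at least 2-fold higher. Genes beyond 2-fold by test numbered 340 higher and 329 lower with no filter, and 125 higher and 146 lower with only the 4 wild-type libraries. Over the fits that left out 1 library, calls ranged from 83 to 2610 higher and from 119 to 2747 lower, those of at least 2-fold from 83 to 1356 and from 119 to 1945, and those beyond 2-fold by test from 2 to 494 and from 2 to 550. The labels give no replicate numbers, and the 2 runs of sample numbers served as the replicate block. Deviations from the group means correlated between libraries of a run at 0.143 to 0.426 across genes, and no label says what the libraries of a run share beyond their numbers. With that block 2134 genes were called higher and 2327 lower, 3508 of the 3512 calls stayed, and 324 genes were lower beyond 2-fold by test. Of 325 named called genes, 50 kept their call in every alternative run. Of 5142 pairs of a gene and an alternative, 682 lost it, and of 1920 counts and medians of lists, 325 moved by over 1.5 times. The cause of these differences was not tested. With 2 libraries a group, changes under 1.5-fold passed the test in 1.83% of 6777 genes, and the median SE of 0.29 limits genes under 5 FPKM most.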
